A study of Rattus norvegicus with 3 samples.

Results

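Fibrinogen is the soluble clotting protein of blood plasma. Its Aα, Bβ and γ chains are encoded by Fga, Fgb and Fgg, and these transcripts were followed in whole kidney of 3 male rats. The chains are paired in 1 disulphide-linked molecule, and in rodents the genes are switched on mainly in hepatocytes, where interleukin-6 raises all chains together through STAT3 as part of the acute phase response. Thrombin cuts short peptides from the Aα and Bβ chains so that fibrin polymerises, factor XIII cross-links the polymer, and plasmin dissolves it. Fibrinogen transcripts have also been described in injured kidney tubules of rodents.

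The study hybridised kidney RNA to 3 Clariom S rat arrays, each for 1 rat, and its title names stones, complement and fibrinogen, so the choice of these genes is not independent of the study's own finding. One group, the control, held 1 rat, and ethylene glycol (EG), given by mouth at 8 g/kg, was followed for 2 days in 1 rat and for 5 days in another. EG is a solvent that the body oxidises to oxalate, which forms calcium crystals in the tubule. The labels give no strain or age, do not say whether the control received a vehicle, and leave unclear whether EG was given once or daily. The 3 members were the transcript clusters (probes assigned to 1 transcribed locus) whose gene symbol was Fga, Fgb or Fgg, 3 of the 20667 genes in the table. Each stood on 1 cluster, and 0 further clusters named any of them together with another gene.

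Values are the authors' deposited log2 signals. The background level was 5.34 log2, the 95th percentile of 1060 genes carrying olfactory receptor symbols, which were taken to be silent in kidney. A gene counted as measured if any array reached that level, as was true of 13546 genes (65.5%). Lower values were set to the level, so a difference with 1 side under it is a lower bound, written "at least". Array medians were between 6.21 and 6.30 log2. Without the background level, 5.09%, 5.28% and 3.58% of the olfactory receptor symbols lay 2-fold or more apart in EG day 2 against control, EG day 5 against control and EG day 5 against EG day 2. Each group is 1 animal, so the spread between animals is unknown, no test was run and none of the differences below has a replicate check. The kidney markers Umod (uromodulin of the thick ascending limb) and Slc34a1 (the proximal tubule phosphate transporter) were at 17.54 log2 or more on every array. In whole kidney, a change in the number of cells that carry a transcript and a change in RNA per cell cannot be told apart.

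The 3 genes lie next to each other on rat chromosome 2, in the order Fgg, Fga, Fgb, with Fgb on the opposite strand. Since all of them were higher on the EG day 2 array, the 250 bases before each annotated start are shown, from RefSeq on build GRCr8, which is not the build of the array annotation (rn6). Each is written in the direction of its gene. Capitals mark matches to 3 motifs searched on both strands. These were CTGGGAA, the element described for interleukin-6 response in rat fibrinogen genes, TTGCNNAA for C/EBP factors, and TATAAA, the TATA box.
Fgg, chr2:170652833-170653082, plus strand: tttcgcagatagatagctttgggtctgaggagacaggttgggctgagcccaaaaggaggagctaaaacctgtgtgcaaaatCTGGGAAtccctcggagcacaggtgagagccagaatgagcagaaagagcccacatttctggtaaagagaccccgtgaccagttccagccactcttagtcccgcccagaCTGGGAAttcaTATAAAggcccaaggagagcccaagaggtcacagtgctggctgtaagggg
Fga, chr2:170671919-170672168, plus strand: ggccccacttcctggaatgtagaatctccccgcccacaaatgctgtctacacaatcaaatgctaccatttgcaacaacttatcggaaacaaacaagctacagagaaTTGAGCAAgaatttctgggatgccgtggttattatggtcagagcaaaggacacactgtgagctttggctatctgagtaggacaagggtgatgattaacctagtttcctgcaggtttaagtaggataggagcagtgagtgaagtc
Fgb, chr2:170700876-170701125, minus strand: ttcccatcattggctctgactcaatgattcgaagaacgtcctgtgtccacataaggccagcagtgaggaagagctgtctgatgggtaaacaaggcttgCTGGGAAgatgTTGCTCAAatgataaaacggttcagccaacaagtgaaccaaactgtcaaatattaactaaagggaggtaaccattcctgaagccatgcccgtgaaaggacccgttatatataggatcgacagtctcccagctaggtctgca

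CTGGGAA stood 2 times before Fgg, at positions -169 to -163 and -61 to -55 counted from the annotated start, and 1 time before Fgb, at -152 to -146. It had 0 full matches before Fga, whose window holds ctgggat, the same letters except the last. Matches with 1 letter changed were not counted in any window, so how common they are is unknown. TTGCNNAA stood before Fgb at -141 to -134 as TTGCTCAA. Before Fga it lay on the other strand at -144 to -137, where the printed letters TTGAGCAA read TTGCTCAA. TATAAA was found before Fgg at -50 to -45. No motif matched in full before all 3 genes. Of 33469 promoter windows of the same length, 9.56% held CTGGGAA, 9.22% TTGCNNAA and 12.9% TATAAA, and 0.493% held CTGGGAA more than once. Fga has a second annotated start in the table, whose window is not shown, and RefSeq's gene range for Fgg begins inside the window printed here. A match is a description of letters and not a measured site.

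**Figure D1:**
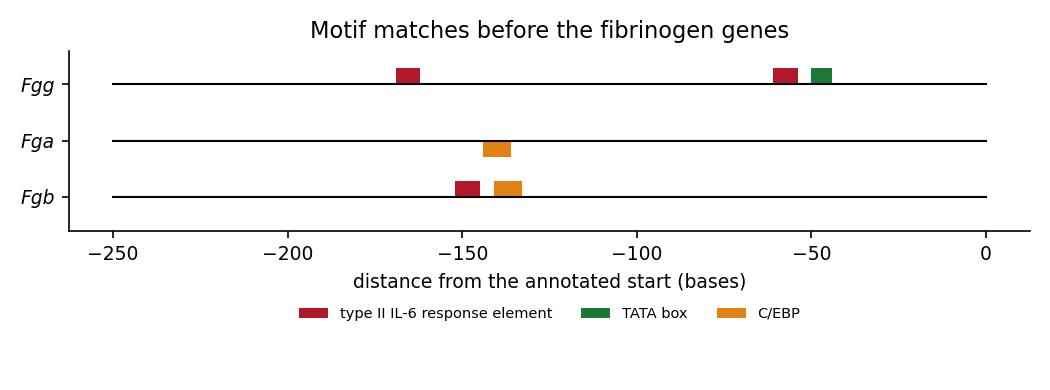
Motif matches in the 250 bases before Fgg, Fga and Fgb, by distance from the annotated start in bases. Boxes above a line are on the gene's strand and boxes below it on the other. Full matches of CTGGGAA, the interleukin-6 element, lie before Fgg (2) and Fgb (1), and those of the C/EBP motif before Fga and Fgb.

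Fga encodes the Aα chain, which carries the fibrinopeptide that thrombin removes first. Its signal was 7.72 log2 in the control, 16.49 at EG day 2 and 9.84 at EG day 5. The EG day 2 array stood far above the others, and the EG day 5 array lay closer to the control than to EG day 2. The difference from control was 8.77 log2 units (437-fold on the deposited scale) at EG day 2 and 2.12 (4.35-fold) at EG day 5. The direct comparison of the EG arrays gave a log2 difference of -6.65 at EG day 5, or 100.4-fold lower. The EG day 2 value exceeds 16 log2, the range of a 16-bit scanner, as did 232 of 23188 clusters on at least 1 array, so the deposited scale was transformed and folds on it need not equal ratios of RNA. RefSeq lists 2 transcripts of Fga, which 1 cluster value cannot separate.

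Fgb, the Bβ chain gene, stood at 6.06 log2 in the control, 13.83 at EG day 2 and 8.16 at EG day 5. The order of the arrays was that of Fga. Fgb was higher than in the control by 7.77 log2 units (218-fold) at EG day 2 and by 2.10 (4.29-fold) at EG day 5. Between the EG arrays it was lower by 50.9-fold at EG day 5.

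Fgg, the γ chain gene, was at 4.12 log2 in the control, under the background level, at 9.73 at EG day 2 and at 5.39 at EG day 5. The EG day 5 value lay 0.05 log2 above the background level, so Fgg was barely detected on that array. At EG day 2 it was at least 21.0-fold higher than in the control. The comparison of both EG arrays, measured on each side, gave -4.34 log2 units at EG day 5 (20.3-fold lower).

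**Figure D2:**
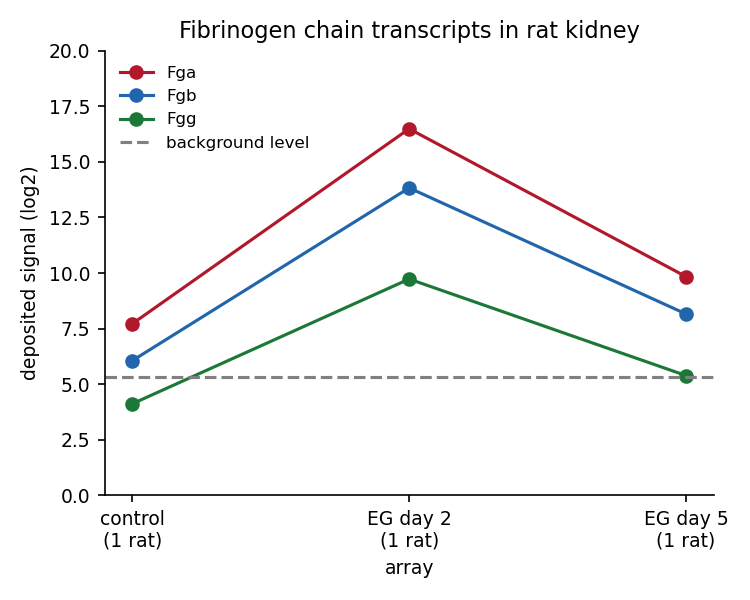
Deposited log2 signal of Fga, Fgb and Fgg on each of the 3 arrays, 1 rat each, with the background level of 5.34 log2 as a dashed line. Each gene is highest at EG day 2, and Fgg lies under the background level in the control (4.12).

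All 3 members were at least 4-fold higher at EG day 2 than in the control, against 0.362% of the 13546 measured genes. They stood at ranks 2 (Fga), 3 (Fgb) and 8 (Fgg, by its bound) among all measured genes, and rank 1 was Havcr1, which encodes the tubular injury protein KIM-1. At EG day 5, Fga and Fgb were at least 4-fold above control, which held for 0.325% of measured genes, and stood at ranks 34 and 35. Between the EG arrays all 3 were at least 4-fold lower at EG day 5, against 0.221% of measured genes, at ranks 1, 2 and 4. Serpina3n took rank 3.

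The members differed in size. At EG day 2 the difference from control was 1.00 log2 unit larger for Fga than for Fgb, and at EG day 5 it was 0.02 larger. Between the EG arrays, the difference of Fga minus that of Fgb was -0.98 log2 units, and minus that of Fgg it was -2.31. The log2 difference from control at EG day 5 was 24.2% of that at EG day 2 for Fga and 27.0% for Fgb. Among the 46 other genes at least 4-fold higher at EG day 2, the median percentage was 50.5% (quartiles 32.6% and 78.0%). Of these genes, 10 were at or below the value of Fga and 11 at or below that of Fgb. For Fgg, whose control value has no measured level, the unfloored values of 5.61 and 1.27 log2 units give 22.6%. With values set to the background level, as elsewhere, the percentage for Fgg was 1.14%, so it depends on that choice. Both differences in each percentage use the same control array.

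The genes on either side of the cluster had other values. Lrat, which makes retinyl esters and precedes Fgg, was at 4.02 log2 in the control, 7.09 at EG day 2 and 6.77 at EG day 5. It was under background in the control and at least 3.36-fold and 2.69-fold higher on the EG arrays, which lay 0.32 log2 apart. Plrg1, a splicing factor gene that follows Fgb, was at 8.87, 9.45 and 8.57 log2. Sfrp2, a secreted modulator of Wnt signalling, was lower by 1.44 log2 units at EG day 2 and by 1.60 at EG day 5. Of the 6 measured genes on the list of neighbours, 1 reached 2-fold higher and 1 reached 2-fold lower at each EG time. The background for such counts at EG day 2 was 4.45% of measured genes for 2-fold higher and 2.45% for 2-fold lower, and at EG day 5 4.75% and 3.62%.

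**Figure D3:**
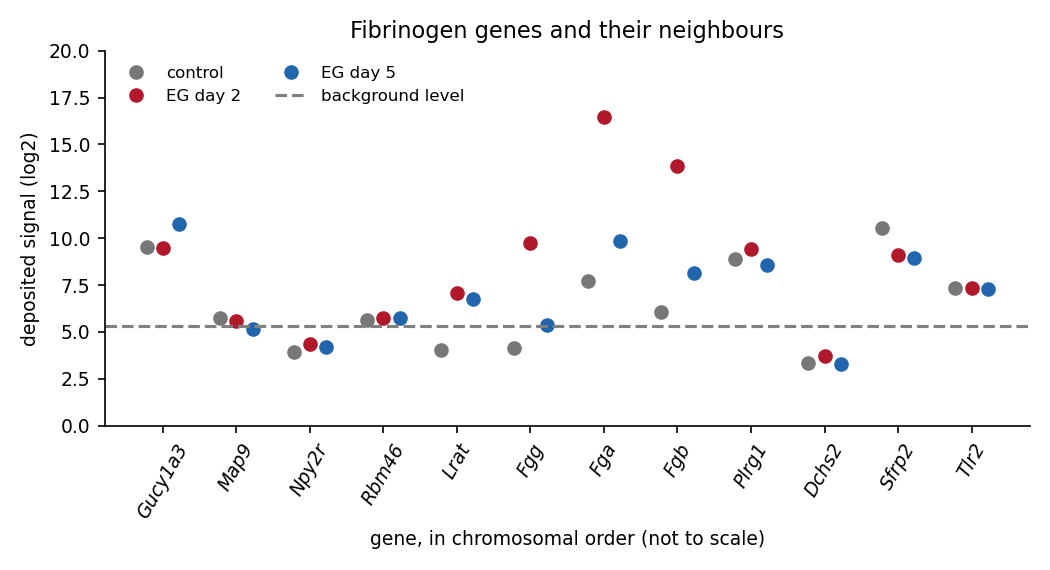
Deposited log2 signal on the 3 arrays of Fgg, Fga, Fgb and the nearest protein-coding genes on chromosome 2, in chromosomal order by RefSeq and not to scale. Fgg, Fga and Fgb have the widest gaps between EG day 2 and control, and Lrat lies above the background level on both EG arrays.

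A pair of measures fixed by rule named the genes whose pattern was most like that of Fga. By distance in the plane of both differences from control, over 3 arrays, Fgb was 1.00 log2 unit away. The nearest other gene was Serpina3n, a serine protease inhibitor of the acute phase, at 2.92. It stood at 6.0, 11.99 and 7.23 log2 in the control, EG day 2 and EG day 5. Lcn2 (4.63), Socs3 (4.84), the phosphate transporter gene Slc34a2 (4.84) and Spp1 (4.96) followed, about as far as Fgg at its bound (4.84). Lcn2 and Spp1, which encode NGAL and osteopontin, differed from Fga at the later time, with EG day 5 higher than control by 6.35 and 6.56 log2 units.

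The other measure was the percentage of the EG day 2 log2 difference present at EG day 5, among genes at least 4-fold higher at EG day 2. Among the 5 values nearest to the 24.2% of Fga were those of Osmr (26.7%), Serpina3n (20.5%), the linker histone gene Hist1h1b (19.6%) and PVR (18.1%). Their EG day 2 differences were smaller, from 2.02 for Osmr to 5.99 log2 units for Serpina3n. Serpina3n was named by both measures.

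**Figure D4:**
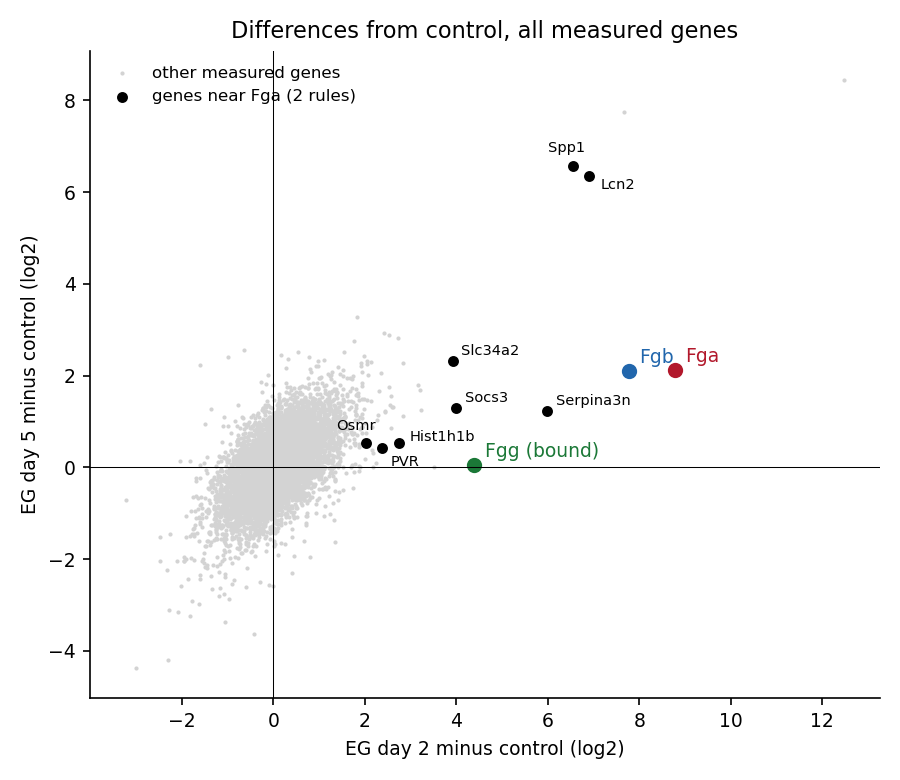
Log2 difference from control at EG day 2 (horizontal) and EG day 5 (vertical) for each of the 13546 measured genes. Fga and Fgb lie at 8.77 and 7.77 on the horizontal axis and near 2.1 on the vertical one, apart from Lcn2 and Spp1, which stood above 6 on both. Havcr1 and the injury marker Clu, which are not labelled, also stood above 6 on both. Both axes share the control array.

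Genes upstream of fibrinogen in liver were examined first among related genes. Of 26 ligands, receptors and signalling genes of the interleukin-6 family, 23 were measured. Among these, 3 reached 2-fold higher at EG day 2 and 0 reached 2-fold lower, against 4.45% and 2.45% of all measured genes. The median was 0.29 log2, against 0.05 over all measured genes. Socs3, a feedback inhibitor that STAT3 induces, was at 5.85, 9.85 and 7.15 log2 in the control, EG day 2 and EG day 5. Osmr, the oncostatin M receptor, was at 10.63, 12.65 and 11.17. Lif, a ligand of the family, was over background on the EG day 2 array alone (7.51) and at least 4.50-fold higher there than in the control. These 3 genes were, like the members, highest at EG day 2. Other genes of the list, among them Stat3, were also highest on that array, by smaller differences.

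The ligand genes Il6 and Osm were under background on all 3 arrays. Il6st, which encodes the shared receptor chain gp130, was at 13.05, 13.93 and 13.08 log2, and Stat3 at 12.18, 13.02 and 12.32. Neither reached 2-fold. At EG day 5, Socs3 (1.30) and the ligand gene Cntf (1.23) were at least 2-fold above control, and the list median was 0.03 against 0.01 for all genes. Between the EG arrays, Socs3, Lif and Osmr were at least 2-fold lower at EG day 5 and 0 genes of the list were higher, against 3.34% lower and 2.21% higher among all genes.

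Transcription factors known at fibrinogen promoters in liver had 13 of 16 genes measured. At EG day 2, 0 reached 2-fold higher and 1 reached 2-fold lower (median 0.01), against 4.45% and 2.45% of all measured genes. The lower gene was Atf3, a stress-induced repressor, by 1.23 log2 units. Hnf4a was at 14.25, 13.63 and 13.95 log2. Cebpd, an interleukin-6 responsive factor, was at 8.31, 8.58 and 7.32, and Cebpb was over background at EG day 2 alone, at 5.74. At EG day 5 Usf1 (1.00) reached 2-fold and Atf3 was again lower, by 1.46.

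Plasma proteins of the acute phase are liver products that usually change with fibrinogen, most of them upward. The list also holds Alb and Ttr, known as negative acute phase proteins, which usually fall when fibrinogen rises. Of 24 such genes in the deposited file, 15 were measured. Of these, 6 reached 2-fold higher at EG day 2 and 0 reached 2-fold lower (median 0.74), against 4.45% and 2.45% of all measured genes. They were Lcn2 (6.89), Serpina3n (5.99), C3 (2.52, the central complement component), Kng1 (2.44, kininogen), the copper protein gene Cp (1.24) and Lbp, at least 2.22-fold. Lcn2 is also counted among the tubular injury markers below. Hp (haptoglobin), Orm1 (orosomucoid) and Crp, all classical acute phase products, were under background on all 3 arrays. The later array had 8 at least 2-fold higher, among them Alb (1.73), and 1 reached 2-fold lower (median 1.20). Over all measured genes, 4.75% were 2-fold higher and 3.62% lower on that array. A2m, the rat acute phase protease inhibitor, was at 4.63, 6.12 and 7.75 log2, highest at EG day 5, and Apcs, the pentraxin gene, was lower there by 2.46.

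Markers of liver cells were set beside these values, and their part in the fibrinogen values was not tested. Of 23 liver parenchyma genes in the deposited file, 17 were measured. At EG day 2 none reached 2-fold in either direction (0 higher, 0 lower), against 4.45% higher and 2.45% lower among all measured genes. The differences of the 17 genes ran from -0.85 to 0.57 (median -0.22, against 0.05 over all measured genes). Genes at or above background numbered 13 in the control, 14 at EG day 2 and 13 at EG day 5. The summed level of the list, on a log2 scale, was 13.4, 12.8 and 13.3. That sum mostly follows Serpinc1 (antithrombin) and Cyp2e1, which made up 87.1%, 80.8% and 86.0% of it, and the median of the other genes was 5.56, 5.50 and 5.43 log2, near the background level. Alb (albumin), which is on this list too, was at 6.46, 7.03 and 8.19 log2. Apoa1 was under background on all arrays, and Ttr was at 5.61, 5.16 and 6.49.

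Platelet and megakaryocyte genes, which mark the cells that carry fibrinogen in their granules, had 6 of 14 genes measured and 0 at least 2-fold apart from control at either time. The shares among all measured genes were 4.45% higher and 2.45% lower at EG day 2, and 4.75% and 3.62% at EG day 5. With 6 genes, a count of 0 lies near those shares. On each array, 9 of the 14 platelet genes were under background, and the summed level of the 14 was 9.40, 9.15 and 9.23 log2. Itga2b, the platelet fibrinogen receptor chain, was at 6.75, 6.35 and 6.64, and Pf4 was under background throughout. Of 13 neutrophil genes, 12 were under background on all 3 arrays, with Mmp9 the exception.

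Markers of injury and of some other cell types also differed on the EG day 2 array, and their part in the fibrinogen values was not tested. Over all measured genes, 4.45% were 2-fold higher and 2.45% lower at EG day 2, and 4.75% and 3.62% at EG day 5. Of 12 podocyte and endothelial genes, 0 reached 2-fold in either direction at EG day 2 (median -0.04). Of 15 thick ascending limb, distal and collecting duct genes, 0 reached 2-fold higher and 2 reached 2-fold lower at EG day 2 (median -0.17). Of 18 tubular injury markers measured, 12 reached 2-fold higher and 0 reached 2-fold lower, and the summed level of the list was 13.4 log2 in the control, 19.7 at EG day 2 and 19.1 at EG day 5. Spp1 was the largest term of that sum on each array, and Havcr1 was at 5.92, 18.39 and 14.36. Of 18 macrophage and monocyte genes, 9 reached 2-fold higher and 0 reached 2-fold lower at EG day 2, and their summed level was 15.3, 17.0 and 17.2. Lyz2 (lysozyme) alone made up 94.1%, 96.7% and 96.6% of that sum, and the median level of the 18 genes was 6.29, 7.47 and 7.51 log2. Of 17 proximal tubule genes, 8 reached 2-fold lower and 0 reached 2-fold higher, with summed levels of 21.9, 21.1 and 21.1. Red blood cell genes were lower, with 3 of 6 measured genes reaching 2-fold lower at EG day 2. At EG day 5 this count was 4, and 0 reached 2-fold higher at either time. Hbb, a beta globin gene, was at 16.11, 14.30 and 12.87 log2, which is 3.51-fold and 9.45-fold below control. Of 8 fibroblast genes, 2 reached 2-fold higher and 1 reached 2-fold lower at EG day 2, against 5 and 1 at EG day 5. The collagen gene Col3a1 was at 10.33, 10.66 and 12.69.

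Chaperones and carriers that fold and move secreted proteins, as the fibrinogen hexamer needs, were all measured (12 of 12). Of these, 2 reached 2-fold higher at EG day 2 and 0 reached 2-fold lower (median 0.64), against 4.45% and 2.45% of all measured genes. Pdia4, a disulphide isomerase of the endoplasmic reticulum, was higher by 1.82 log2 units and Mcfd2, part of a cargo receptor for clotting factors, by 1.14. Pdia4 was higher by 1.36 at EG day 5, where the median was 0.34.

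The clot formation list mixes clotting factors with inhibitors of clotting such as Serpinc1 (antithrombin), so its counts and medians do not describe 1 function. Its measured genes lay closer to control than the members at EG day 2. Of 13 genes 11 were measured, and at EG day 2 none (0) reached 2-fold higher and 2 reached 2-fold lower (median 0.16). The counts at EG day 5 were again 0 and 2 (median -0.59). Over all measured genes, 4.45% were 2-fold higher and 2.45% lower at EG day 2, and 4.75% and 3.62% at EG day 5. F2 (prothrombin) was at 6.38, 6.95 and 6.12 log2, and F13a1, the catalytic chain of factor XIII, was under background on all arrays. F13b, the carrier chain of factor XIII, was lower by 1.15 log2 units and F10 (factor X) at least 2.19-fold lower at EG day 2. F3, which encodes tissue factor, the starter of coagulation, was at 12.58, 12.74 and 10.93, and was thus lower at EG day 5 by 1.65.

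Fibrinolysis genes had 12 of 16 members measured, and 3 reached 2-fold higher at EG day 2 (median 0.37) and 4 at EG day 5 (median 0.48), while 0 reached 2-fold lower. Among all measured genes, 4.45% and 4.75% were 2-fold higher at EG day 2 and EG day 5, and 2.45% and 3.62% lower. Anxa2 and S100a10, whose products form a cell surface complex that binds plasminogen, were higher by 2.08 and 1.67 at EG day 2 and by 2.01 and 1.66 at EG day 5. Plg (plasminogen) was under background on all arrays.

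Receptors for fibrinogen and fibrin were at least 2-fold higher for 2 of 12 measured genes at each EG time and lower for 0 (medians 0.55 and 0.43). The shares over all measured genes were 4.45% higher and 2.45% lower at EG day 2, and 4.75% and 3.62% at EG day 5. Itgav, the integrin αV chain, was higher by 1.05 log2 units at EG day 2. Tlr4, an innate immune receptor, was higher by 1.14 at EG day 5, and Cd44 by 2.36 and 2.06 at EG day 2 and EG day 5. Itgam, a chain of the leukocyte integrin that binds fibrin, was under background on all arrays.

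Proteins that share the fibrinogen C-terminal fold without forming clots had 11 genes measured of 16 in the table. At EG day 2, 3 reached 2-fold higher (median 0.00) and at EG day 5, 2 did (median 0.09), while 0 reached 2-fold lower at either time. All measured genes had 4.45% higher and 2.45% lower at EG day 2, and 4.75% and 3.62% at EG day 5. Fgl2, a membrane prothrombinase, was at 6.97, 8.40 and 7.03 log2, high on the EG day 2 array as the chain genes were. Tnc (tenascin C) was higher by 1.87 and 1.46 at EG day 2 and EG day 5, and Angptl4 at least 2.01-fold at EG day 2. Mfap4, a microfibril protein gene, went the other way in time, at 6.90, 6.27 and 9.45 log2.

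**Figure D5:**
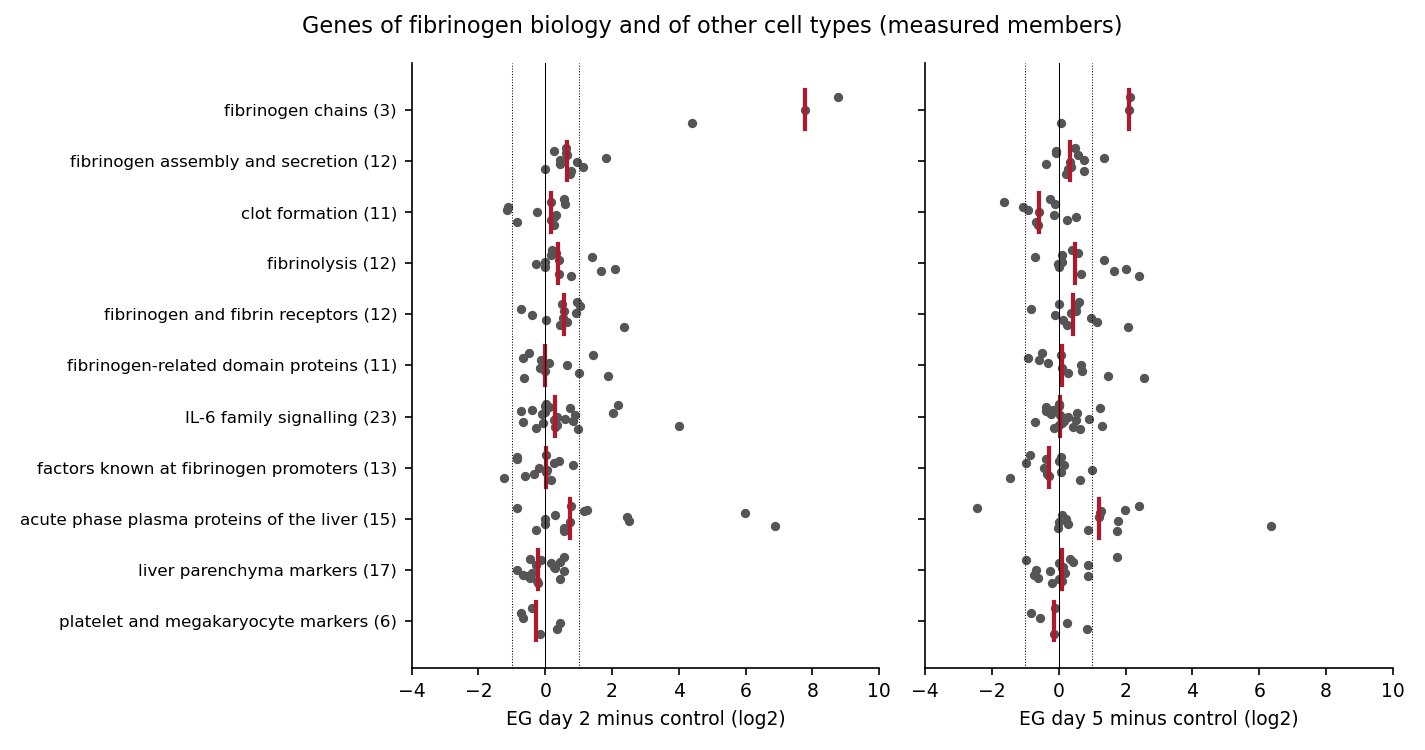
Log2 difference from control at EG day 2 (left) and EG day 5 (right) of each measured member of 11 gene lists, with the number measured in brackets. Points are genes, red bars list medians and dotted lines 2-fold. Values with 1 side under background are bounds, and with both sides under it they are drawn at 0. The fibrinogen chains lie between 4.39 and 8.77 at EG day 2, while the liver parenchyma and platelet genes lie between the dotted lines at that time. Of all measured genes, 4.45% reached 2-fold higher and 2.45% reached 2-fold lower at EG day 2.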

How the data were processed

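Kidney RNA of 3 male rats was measured on 3 arrays. The deposited log2 signals per transcript cluster were made by the authors with Transcriptome Analysis Console, unfiltered and annotated on build rn6, per the file headers. For its version and for how it corrected background, summarised probes and normalized arrays, the sources used here give nothing. The deposited tables held identical values (69564 of 69564). Clusters with exactly 1 gene symbol were used, and where a gene had several, the one with the highest mean stood for it. Of the 1060 olfactory symbols, 1 (Olr1) is the oxidised LDL receptor by its description, and the level without it was again 5.34. A list median counts a measured gene with both sides under background as 0.

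The members and lists were chosen with earlier results of these data known. Motifs were chosen from textbook knowledge after the promoter sequences had been seen. List symbols were matched to the table directly or through RefSeq synonyms. Named genes are the 3 members, up to 4 measured genes per list, taken by largest difference from control, 23 genes fixed by name and the 5 nearest genes by each measure. Genes outside that rule (Hp, Orm1, Crp, Osm, Itgam, Kng1, Cp and Lbp) were named after their values were seen, and some genes that the rule names are not reported here. The number of arrays limits the precision. Differences were computed in Python 3.11.15 with pandas 2.3.3, tested on simulated data, and cyclic loess used limma 3.58.1. Alternatives covered the background level, the scaling, the choice of cluster, the naming of clusters, the list membership and the other deposited table.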

Additional observations from a re-analysis of the deposited data

How the results depend on the processing

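Fga and Fgb kept their direction and moved by less than 1.5-fold under all 9 alternatives run on them. Several of these could not move either gene. Each gene stood on 1 unshared cluster, the deposited tables were identical, and both genes lay above 5.34 log2 on every array. Only the changes of scaling could move both genes. The raised level of 6.4 log2 could move Fgb, at 6.06 in the control, but not Fga. Fga was higher than control at EG day 2 by 8.58 to 8.77 log2 units and Fgb by 7.43 to 7.77, and at EG day 5 by 2.03 to 2.16 and 1.76 to 2.10. Fgg depends on the background level. With a background taken as the median of the olfactory symbols, or with none, it was 5.61 above control at EG day 2 and 1.27 at EG day 5, from a control value under the level used in the report. With the median of all values as background, Fgg was 3.33 above control at EG day 2 and differed by -3.33 between the EG arrays, since its EG day 5 value then also lay under the level. Over all genes, those at least 2-fold lower at EG day 2 numbered 332, and 503 and 601 with the lower and with no background level. With no background level, 510 genes in place of 300 reached 2-fold higher in the comparison of EG day 5 with EG day 2. The share of higher genes among 2-fold differences from control was 64.5% at EG day 2, and 53.9% after quantile normalization. At EG day 5 it was 56.7%, and 43.2% with arrays centred on their medians. Centring thus turned the majority direction at EG day 5. Of 486 recomputed list medians, 484 moved by less than 1.5-fold. Leaving out a replicate could not be done with 1 array per group. No paired analysis was possible because each group holds 1 array and the result comes from no test.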

Other observations

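Olr1, which encodes the lectin-like receptor for oxidised LDL, was over background at EG day 2 alone among the 3 arrays. It was at 5.12, 8.85 and 5.22 log2 in the control, EG day 2 and EG day 5 rats, and thus at least 11.4-fold above control on the middle array. It was chosen after its values were seen, and it has no replicate check.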
